A study of Mus musculus with 15 samples.

Results

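The subject is a set of 34 macrophage and microglia genes in bulk RNA-seq of mouse eye tissue, the complex of the retinal pigment epithelium (RPE) and the vascular choroid under it. The genes were taken by name from a list of macrophage and microglia genes, and all 34 were found among the 40481 genes of the count table and passed the low-count filter that left 17991 genes. They are ordered here by role into 9 pan-macrophage genes, 6 resident or perivascular genes, 2 microglial genes, 5 genes of lipid-laden macrophages, 5 Fc receptor and adaptor genes, 5 genes of monocytes and activation, and 2 subunits of the phagocyte NADPH oxidase.

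The 7 control libraries are labelled with the genotype Abca1/Abcg1 flox/flox LysM-Cre and with intraperitoneal AP20187. The 8 INK-ATTAC libraries carry the same alleles and drug plus the INK-ATTAC transgene, in which the p16Ink4a promoter drives an FKBP-linked caspase 8 that AP20187 dimerizes, so that cells with p16Ink4a promoter activity die. The submitters describe 3 months of dosing for the INK-ATTAC mice. LysM-Cre is a Cre recombinase placed in the Lyz2 gene and acts in myeloid cells, so the 2 floxed cholesterol efflux genes are targeted in macrophages of both groups, and Lyz2 itself is read from a locus that carries Cre. Age is not given, and nothing in the labels says whether each library is a separate mouse, so the p-values measure only the spread between these libraries.

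Total counts ran from 39121503 to 65065950 per library, and the 34 genes took 0.705 ± 0.0962% of the counts in the controls (SD, n = 7) and 0.661 ± 0.116% in the INK-ATTAC libraries (SD, n = 8). Pigment cell markers were high in all libraries, with a mean level of 8.19 to 8.60 log2 CPM (counts scaled to the library total) over 10 genes, and 10 of 10 had a log2 fold change below 0 (median -0.05). Macrophage genes were present in every library. Other tissue varied between libraries. The mean level of 10 skeletal muscle markers ranged from 3.48 to 6.77 log2 CPM in the controls and from 5.04 to 7.32 in the INK-ATTAC libraries, with 10 of 10 higher in the INK-ATTAC libraries. That of 11 lens markers ranged from -2.21 to 2.80 in the controls and from -1.55 to 5.74 in the INK-ATTAC libraries, with 11 of 11 higher. The median log2 fold change was 0.89 for the muscle markers and 2.74 for the lens markers. In edgeR 4 of the 10 muscle and 9 of the 11 lens markers had an unadjusted p under 0.05, against 4.14% of all genes. That of 10 rod photoreceptor markers ranged from 4.84 to 6.55 in the controls and from 3.13 to 6.42 in the INK-ATTAC libraries, with 9 of 10 lower (median log2 fold change -0.23). In these 4 lists 0 genes were called after adjustment. Cdkn2a, the gene whose p16Ink4a promoter the transgene uses, was at no more than 0.085 CPM in any library, Casp8 gave a log2 fold change of -0.03 (SE 0.08), and the floxed genes Abca1 and Abcg1 gave -0.06 (SE 0.12) and -0.13 (SE 0.22) between the groups, which both carry the floxed alleles and LysM-Cre.

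Macrophages are phagocytes that depend on CSF1R, the receptor of the growth factors CSF1 and IL-34, and on the transcription factor PU.1. Those of the choroid lie along vessels and carry scavenger receptors such as CD206 and CD163, while microglia are the macrophages of the retina and can enter the space beneath it. Macrophages that take up much lipid raise a programme with TREM2, GPNMB and osteopontin. Several genes of that programme are also used by other cells, and Gpnmb in particular is a gene of pigment cells as well.

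PU.1 is encoded by the member Spi1 and binds purine-rich sites with the core letters GAGGAA. Promoter windows of 250 bases before the RefSeq start (GRCm38.p6) could be matched for 25 of the 34 genes. The letters GAGGAA, on either strand (TTCCTC on the other), were in 11 of those 25 windows, or 44.0%, against 25.9% of 27025 genes. The longer GAGGAAGT (ACTTCCTC on the other strand), which contains the shorter motif, was in 1 of 25, or 4.0%, against 2.79%. A match describes letters and not binding. The windows below hold a match in a lipid-laden gene (Spp1, the only match to the longer motif, and Trem2), a pan-macrophage gene (Cd53) and a resident gene (F13a1), and are shown because these genes are described in what follows. They read 5′ to 3′ on the strand of the gene, and capitals mark the motif.
Spp1, chr5:104434981-104435020, plus strand: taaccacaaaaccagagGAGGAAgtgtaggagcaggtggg
Trem2, chr17:48346344-48346383, plus strand: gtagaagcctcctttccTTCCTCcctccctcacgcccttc
Cd53, chr3:106790166-106790205, minus strand: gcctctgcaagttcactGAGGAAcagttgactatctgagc
F13a1, chr13:37050288-37050327, minus strand: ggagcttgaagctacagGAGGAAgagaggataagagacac

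None of the 34 genes passed the test between INK-ATTAC and control libraries. With edgeR's quasi-likelihood test over all 17991 genes, 0 of 34 were called at an adjusted p under 0.05 (adjusted p = 1.00 for each), as were 0% of all genes, with 0.515 as the lowest adjusted p of any gene. The unadjusted p was under 0.05 for 0 of the 34, and for 4.14% of all genes. DESeq2 called 0 of the 34 among 6 genes in all and limma-voom called 0. On the log2 scale 28 of the 34 lay below 0 and 6 above, against 50.2% of all genes below 0. The pigment cell and rod markers also lay mostly below 0 and the muscle and lens markers above it, and their part in this count was not tested. The median log2 fold change of the 34 was -0.06, beside -0.00097 for all genes, and leaving out single libraries moved it from -0.09 to -0.03. The number of the 34 below 0 then ran from 22 without control 1 (53.8% of all genes) to 29 without INK-ATTAC 8 (50.8%). The control and INK-ATTAC ranges overlapped for all 34 genes, and did not overlap for 0.0222% of all genes. In bulk tissue a change in the number of macrophages cannot be told apart from one in RNA per macrophage, and neither was shown here.

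**Figure D1:**
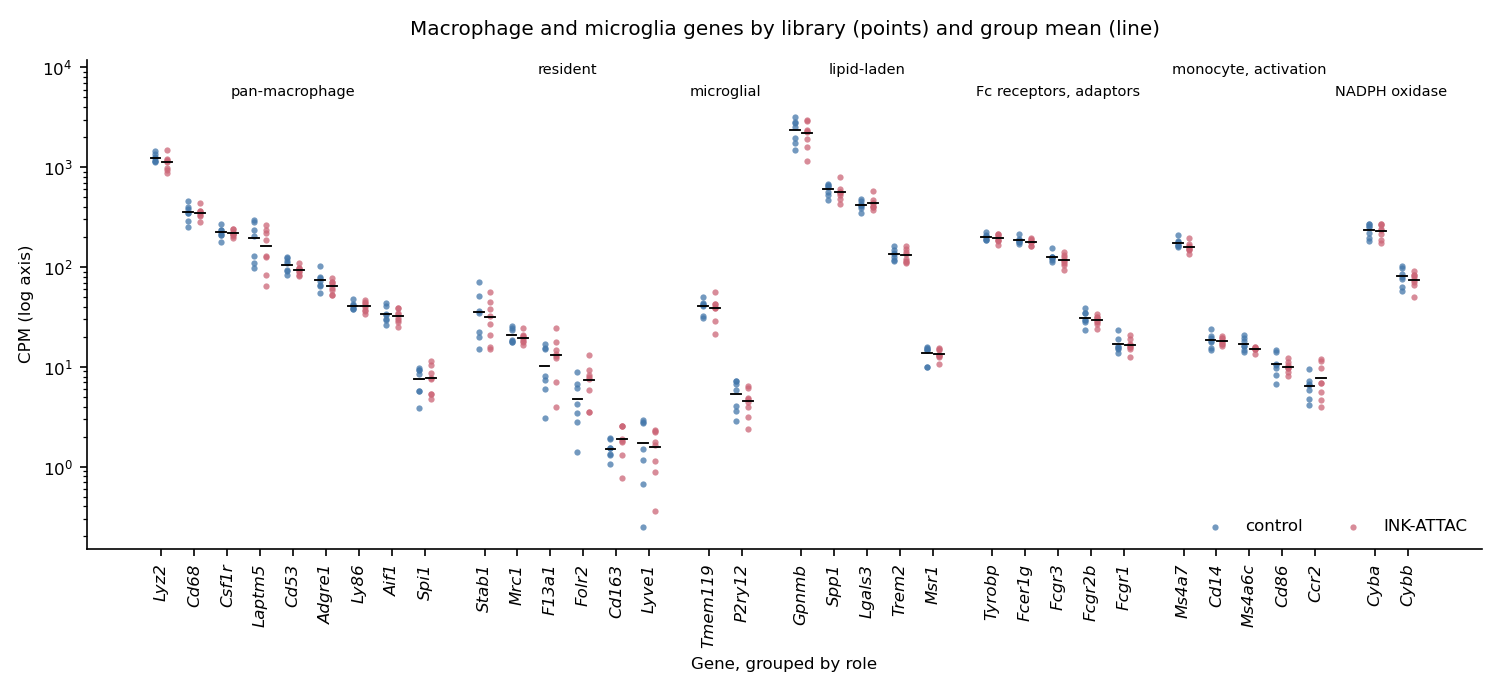
CPM of each of the 34 genes on a log axis, 1 point per library (7 control, 8 INK-ATTAC) with a line at the group mean, ordered by role. The points of both groups overlap for every gene, from Gpnmb at 1167 to 3176 CPM down to Lyve1 at 0.249 to 2.91 CPM.

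Compared per length of exon, the 34 genes spanned a wide range. Lyz2, which encodes the lysozyme of macrophages, led at 898 CPM per kb on average over the 15 libraries. The secreted matrix protein gene Spp1 followed at 353 CPM per kb, then Gpnmb at 348, the adaptor gene Tyrobp at 297, the lysosomal glycoprotein gene Cd68 at 280.2 and the galectin gene Lgals3 at 231. At the low end stood the factor XIII subunit gene F13a1 at 1.76 CPM per kb, the chemokine receptor gene Ccr2 at 1.05, the hyaluronan receptor gene Lyve1 at 0.564 and the haemoglobin scavenger receptor gene Cd163 at 0.315. Both microglial genes were present, Tmem119 at 17.03 CPM per kb and P2ry12 at 1.93.

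Among the pan-macrophage genes 8 of 9 lay below 0 and 1 above, with a median log2 fold change of -0.06, and 0 passed the test. Csf1r held the lowest, median and highest values of 179, 217 and 273 CPM in the controls and of 197, 216 and 242 CPM in the INK-ATTAC libraries. The INK-ATTAC libraries lay wholly inside the control range. Its log2 fold change was -0.03 (SE 0.08, 95% interval -0.19 to 0.14), so a fall of more than 0.19 on the log2 scale lay outside the interval. An exon of Csf1r overlaps the opposite-strand gene Hmgxb3 over 873 bases in the annotation, and the strand setting of the counting is not given.

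Lyz2 (chromosome 10, 117277331 to 117282321, GRCm38) ran from 1138 through a median of 1236 to 1439 CPM in the controls and from 884 through 1146 to 1491 CPM in the INK-ATTAC libraries. 4 INK-ATTAC libraries lay under the lowest control and 1 over the highest. The means were 1250.4 ± 112 CPM (SD, n = 7) and 1122 ± 192 CPM (SD, n = 8), and the log2 fold change was -0.16 (SE 0.10, 95% interval -0.36 to 0.05). Its near copy Lyz1 was at 84.9 ± 18.9 CPM in the controls (SD, n = 7) and 73.1 ± 23.2 CPM in the INK-ATTAC libraries (SD, n = 8), and reads shared between the copies make both values uncertain.

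Cd53, a tetraspanin of leukocytes, had the lowest unadjusted p of the 34. It ran from 83.1 through 110.0 to 126 CPM in the controls and from 81.2 through 93.3 to 109 CPM in the INK-ATTAC libraries. All but 1 of the 8 INK-ATTAC libraries lay inside the control range. The log2 fold change was -0.19 (SE 0.09, edgeR adjusted p = 1.00, 95% interval -0.38 to 0.01). Adgre1, which encodes the F4/80 antigen, ran from 54.8 through 71.7 to 101 CPM in the controls and from 51.9 through 64.5 to 76.9 CPM in the INK-ATTAC libraries. Its highest control, control 1, stood above all other libraries, and 2 INK-ATTAC libraries lay under the lowest control (log2 fold change -0.20, SE 0.12, edgeR adjusted p = 1.00).

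The other 5 pan-macrophage genes differed in how much they varied. Cd68, Aif1 (the calcium-binding protein IBA1) and Ly86 (a partner of a Toll-like receptor relative) gave log2 fold changes of -0.01, -0.06 and -0.03. Spi1 averaged 7.48 ± 2.34 CPM in the controls (SD, n = 7) and 7.66 ± 2.46 CPM in the INK-ATTAC libraries (SD, n = 8). Laptm5, a lysosomal membrane protein gene of blood cells, ran from 97.3 to 299 CPM in the controls and from 63.9 to 263 CPM in the INK-ATTAC libraries. That is a 4.67-fold range across the 15 libraries, so its log2 fold change of -0.25 came with an SE of 0.30.

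The resident and perivascular genes were divided, with 3 of 6 above 0 and 3 below and a median log2 fold change of 0.12. Mrc1 (chromosome 2, 14229392 to 14332057), which encodes the mannose receptor CD206, ran from 17.7 through 18.6 to 25.9 CPM in the controls and from 16.7 through 19.7 to 24.7 CPM in the INK-ATTAC libraries. The groups overlapped almost entirely (log2 fold change -0.09, SE 0.11, 95% interval -0.31 to 0.13). Stab1, a scavenger receptor gene shared with endothelium, varied widely, from 14.9 to 70.7 CPM over all libraries (log2 fold change -0.19, SE 0.33).

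Cd163 (chromosome 6, 124304656 to 124330527) ran from 1.06 through 1.53 to 1.96 CPM in the controls and from 0.777 through 1.84 to 2.57 CPM in the INK-ATTAC libraries. 3 INK-ATTAC libraries lay over the highest control, and the lowest library of all was also an INK-ATTAC library. The log2 fold change was 0.32 (SE 0.23, 95% interval -0.16 to 0.80). Lyve1 (chromosome 7, 110850607 to 110863239) ran from 0.249 through 1.51 to 2.91 CPM in the controls and from 0.362 through 1.70 to 2.31 CPM in the INK-ATTAC libraries. This 11.7-fold range was the widest of the 34 genes, all INK-ATTAC libraries lay inside the control range, and the log2 fold change of -0.12 (SE 0.44) had a 95% interval of -1.05 to 0.82.

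Folr2, a folate receptor gene of resident macrophages (chromosome 7, 101839988 to 101857194), had the highest fold change of the 34. It ran from 1.41 through 4.21 to 8.85 CPM in the controls and from 3.54 through 7.78 to 13.3 CPM in the INK-ATTAC libraries. 2 INK-ATTAC libraries lay over the highest control and none under the lowest. The means were 4.79 ± 2.57 CPM (SD, n = 7) and 7.44 ± 3.20 CPM (SD, n = 8), and the log2 fold change was 0.64 (SE 0.34, 95% interval -0.08 to 1.35, edgeR adjusted p = 1.00). F13a1 (chromosome 13, 36867178 to 37050244) averaged 10.3 ± 5.40 and 13.3 ± 6.24 CPM in the same order (log2 fold change 0.37, SE 0.36). Exons of Folr2 and F13a1 overlap antisense genes over 975 and 74 bases, and without strand the reads cannot be told apart.

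Folr2, F13a1 and Lyve1 correlated with the amount of skeletal muscle RNA in the library. Across the 15 libraries Folr2 correlated with the mean log2 CPM of the 10 muscle markers at Pearson's r of 0.88 and Spearman's rho of 0.83 (permutation p adjusted over the 34 genes 0.0020 and 0.0095). Without controls 2 and 7, the libraries farthest from the median muscle level, r was 0.83. It was 0.83 within the controls and 0.88 within the INK-ATTAC libraries, and 0.94 and 0.73 within the 7 libraries of high and the 8 of low Y-linked level. F13a1 gave an r of 0.84 (adjusted permutation p = 0.0027) and a rho of 0.69 (adjusted permutation p = 0.0696), and an r of 0.76 without those 2 libraries, 0.87 within the controls and 0.83 within the INK-ATTAC libraries. Lyve1 gave 0.76 (adjusted permutation p = 0.0161) and 0.58 (adjusted permutation p = 0.148), and an r of 0.72 without them, 0.81 within the controls and 0.93 within the INK-ATTAC libraries. In the classes of high and low Y-linked level r was 0.91 and 0.69 for F13a1 and 0.95 and 0.60 for Lyve1. Only Folr2 passed by both measures, and this family of 34 relations was chosen after the data were seen. The share of all genes that correlate with muscle level was not computed, so the 3 of 34 that passed by r cannot be set against it.

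**Figure D2:**
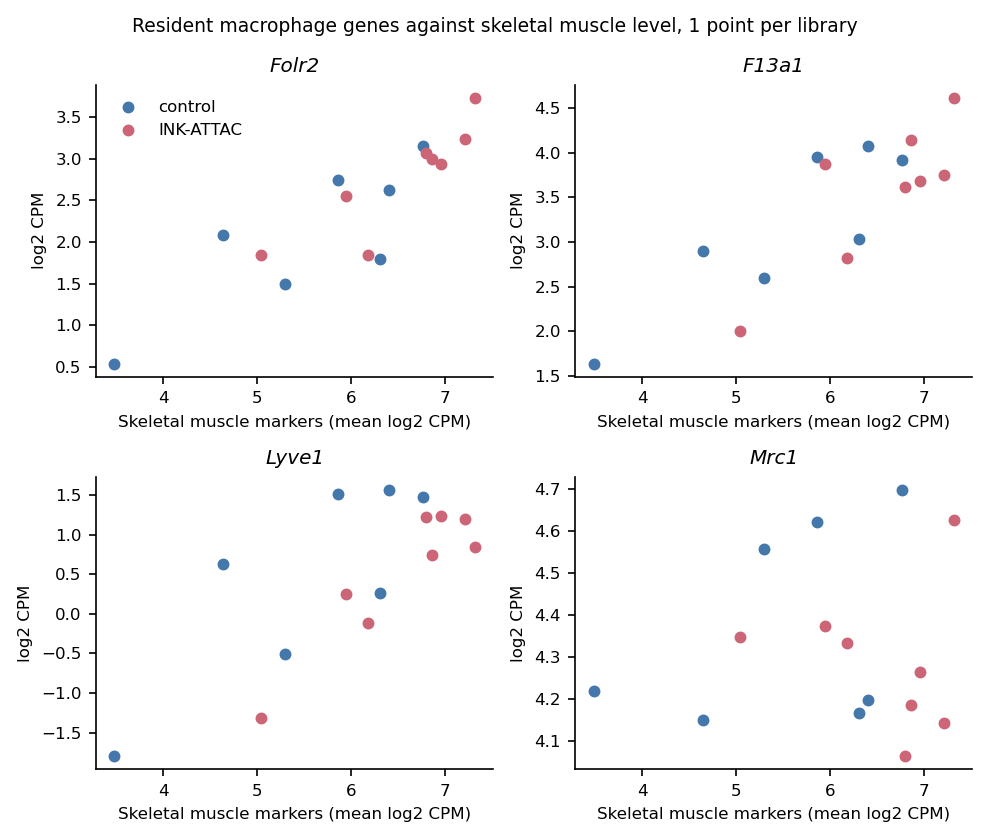
Log2 CPM of Folr2, F13a1, Lyve1 and Mrc1 against the mean log2 CPM of 10 skeletal muscle markers, 1 point per library (7 control, 8 INK-ATTAC). Folr2, F13a1 and Lyve1 rise with muscle level in both groups (r of 0.88, 0.84 and 0.76), while Mrc1 does not (r of 0.08).

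Cd163 gave an r of 0.59 (adjusted permutation p = 0.147) and a rho of 0.70 (adjusted permutation p = 0.0696), close to that of F13a1, and passed by neither. Its r was 0.94 within the controls and 0.38 within the INK-ATTAC libraries, 0.78 and 0.36 in the classes of high and low Y-linked level, and 0.46 without controls 2 and 7. Mrc1 gave an r of 0.08 with muscle level and a rho of -0.09. The most negative were Laptm5 at -0.60, Gpnmb at -0.55 and Cybb at -0.54, none of which passed (adjusted permutation p = 0.147, 0.187 and 0.187). With muscle level as a covariate in edgeR, the log2 fold change of Folr2 went from 0.64 to -0.01, that of F13a1 from 0.37 to -0.32 and that of Lyve1 from -0.12 to -0.99 (adjusted p = 0.938). Muscle level was itself higher on average in the INK-ATTAC libraries, and whether it accounts for the group values of these genes was not tested.

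**Figure D3:**
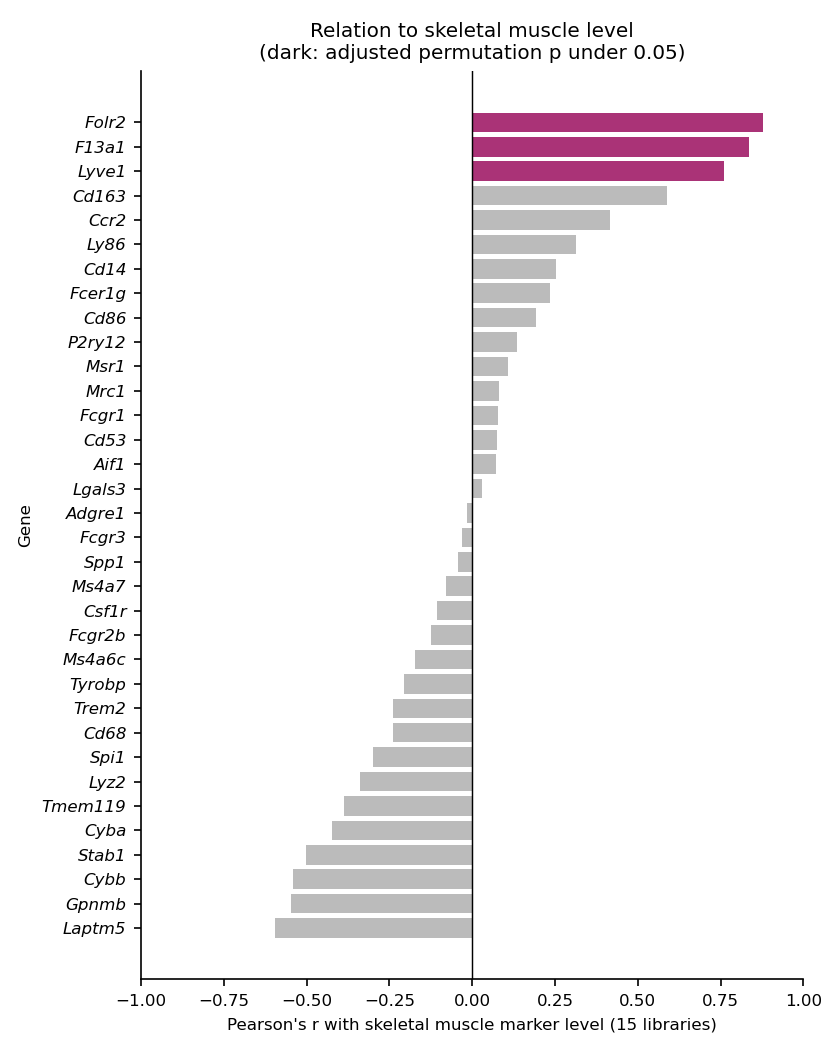
Pearson's r of each of the 34 genes with skeletal muscle marker level across 15 libraries, sorted. Dark bars mark an adjusted permutation p under 0.05, reached by Folr2, F13a1 and Lyve1, and the values run from -0.60 for Laptm5 to 0.88 for Folr2.

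The microglial genes were both below 0, and 0 of 2 passed. P2ry12, a purine receptor of microglia (chromosome 3, 59216272 to 59262871), ran from 2.88 through 5.89 to 7.29 CPM in the controls and from 2.39 through 4.58 to 6.42 CPM in the INK-ATTAC libraries. 7 of 8 INK-ATTAC libraries lay inside the control range (log2 fold change -0.25, SE 0.23, 95% interval -0.73 to 0.24). Tmem119, a membrane protein of microglia that osteoblasts also make (chromosome 5, 113793729 to 113800516), ran from 31.0 through 41.5 to 50.1 CPM in the controls and from 21.3 through 39.2 to 56.3 CPM in the INK-ATTAC libraries. Here INK-ATTAC libraries held both extremes, and the log2 fold change was -0.06 (SE 0.16).

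These 2 genes did not share their nearest partners. Ranked over the 11975 genes whose mean log2 CPM was 1 or more, the highest correlations with P2ry12 were Tpmt at 0.88 and the microglial receptor gene Gpr34 at 0.87 (Pearson's r over 15 libraries). Cept1, Mfsd8 and Zfp870 followed at 0.86 each. Those with Tmem119 were Crispld2 at 0.94, Plxdc1 and Plekha6 at 0.90, and Slco2b1 and Akap12 at 0.89. Slco2b1 is among the further pan-macrophage genes listed here. Tmem119 also correlated with a list of bone genes (r = 0.69, adjusted permutation p = 0.0269 over 48 relations, rho = 0.68, adjusted permutation p = 0.0794). Its r was 0.79 within the controls and 0.68 within the INK-ATTAC libraries, 0.94 and 0.52 in the classes of high and low Y-linked level, and 0.54 without the 2 libraries farthest from the median. The bone list rested on Runx2, Sp7, Alpl and Col1a1, since the mature bone genes Bglap, Ibsp and Dmp1 were at no more than 0.488 CPM in any library.

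Of the genes of lipid-laden macrophages 4 of 5 were below 0 and 1 above, with a median log2 fold change of -0.04, and 0 passed. Trem2, the lipid-sensing receptor (chromosome 17, 48346401 to 48354147), ran from 115 through 135 to 161 CPM in the controls and from 110.4 through 127 to 161 CPM in the INK-ATTAC libraries. The ranges were nearly the same, and the log2 fold change of -0.04 (SE 0.10) had a 95% interval of -0.24 to 0.17. The genes nearest to Trem2 across libraries were Cd5l (r = 0.89), Rnf149 (0.87), Arl4c (0.87), the complement gene C1qb (0.84) and Cd68 (0.84), of which Cd5l, C1qb and Cd68 are macrophage genes.

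Gpnmb (chromosome 6, 49036546 to 49070929), a transmembrane glycoprotein of macrophages and pigment cells, ran from 1501 through 2512 to 3176 CPM in the controls and from 1167 through 2287 to 2977 CPM in the INK-ATTAC libraries. 7 of 8 INK-ATTAC libraries lay inside the control range (log2 fold change -0.10, SE 0.19, 95% interval -0.50 to 0.30). The genes nearest to it were Slc11a1, an ion transporter of phagosomes (r = 0.96), Laptm5 (0.95), Arhgef10, Surf6 and Cdh1 (0.94 each). With the pigment cell list Gpnmb gave an r of 0.25 over all libraries (adjusted permutation p = 0.722), but of 0.96 in the class of high Y-linked level and -0.44 in that of low, and of -0.62 within the controls and 0.50 within the INK-ATTAC libraries. It correlated with the bone list (r = 0.82, adjusted permutation p = 0.0091, rho adjusted permutation p = 0.0794) and the endothelial list (r = 0.71, adjusted permutation p = 0.0269, rho adjusted permutation p = 0.0826). The bone list rested on Runx2, Sp7, Alpl and Col1a1, as above. With it r was 0.93 within the controls and 0.75 within the INK-ATTAC libraries. In the classes of high and low Y-linked level r was 0.95 and 0.77. With the endothelial list these were 0.66 and 0.75, and 0.87 and 0.40. Without the 2 libraries farthest from the median of each list r was 0.72 with the bone list and 0.49 with the endothelial list. In the endothelial list Prox1 ranged 76.4-fold and Reln 16.9-fold over all libraries, against 1.76-fold for Emcn and 2.08-fold for Pecam1. How far single genes set the list level was not tested.

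Spp1, which encodes osteopontin (chromosome 5, 104435118 to 104441050), ran from 474 through 636 to 682 CPM in the controls and from 429 through 558 to 794 CPM in the INK-ATTAC libraries. INK-ATTAC libraries again held both extremes (log2 fold change -0.08, SE 0.11, 95% interval -0.32 to 0.15). Exons of Spp1 overlap the same-strand gene Gm42793 over 309 bases. Spp1 correlated with the pigment cell list (r = 0.74, adjusted permutation p = 0.0269, rho adjusted permutation p = 0.117), more within the INK-ATTAC libraries (r = 0.91) than within the controls (r = 0.20). That difference was not tested. In the classes of high and low Y-linked level r was 0.58 and 0.96, and it was 0.62 without the 2 libraries farthest from the median. Lgals3 was the member of this role above 0, at 0.07 (SE 0.09), and the scavenger receptor gene Msr1 gave -0.01 (SE 0.12).

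Across the 8 resident, microglial and lipid-laden genes and 6 lists of other cells, 48 relations in all, 5 passed by Pearson's r and 0 by both measures. By the first measure Lyve1 went with the muscle list and Spp1 with the pigment cell list. Tmem119 and Gpnmb went with the bone list, and Gpnmb also with the endothelial list. The level of the bone list held no mature bone gene. By rank 0 of the 5 relations passed after adjustment. With the endothelial list, which includes lymphatic genes, Lyve1 gave an r of -0.59 and a rho of -0.71 (adjusted permutation p = 0.129 and 0.0794). Its rho with muscle was 0.58 in the same family (adjusted permutation p = 0.139).

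**Figure D4:**
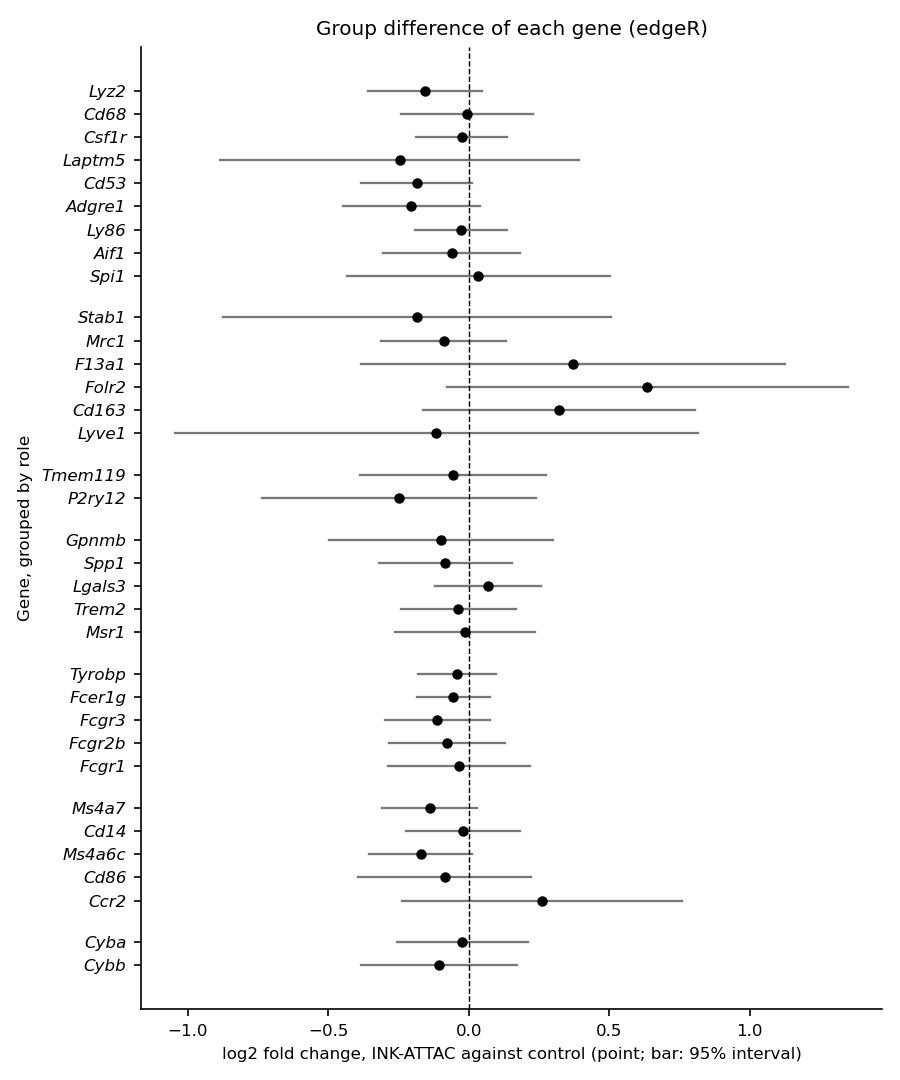
Log2 fold change of each of the 34 genes, INK-ATTAC against control, with its 95% interval from edgeR, ordered by role. Every interval crosses 0, and the widest are those of Lyve1 (-1.05 to 0.82), F13a1 (-0.38 to 1.13) and Folr2 (-0.08 to 1.35).

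The adaptor genes Tyrobp and Fcer1g had the lowest coefficients of variation of the 34 genes. Tyrobp, the adaptor DAP12 that signals for TREM2, ran from 186 through 201 to 224 CPM in the controls and from 166 through 195 to 216 CPM in the INK-ATTAC libraries, with a coefficient of variation of 7.92% over the 15 libraries. Fcer1g, the common Fc receptor gamma chain, had one of 7.33% and ran from 171 to 215 CPM in the controls and from 161 to 195 CPM in the INK-ATTAC libraries. The log2 fold changes were -0.04 (SE 0.07) and -0.06 (SE 0.06), and their 95% intervals reached no lower than -0.19. The activating receptor genes Fcgr1 and Fcgr3 gave log2 fold changes of -0.04 and -0.11, the inhibitory receptor gene Fcgr2b gave -0.08, and 0 of 5 passed. These 3 varied more, with coefficients of variation of 16.8%, 12.4% and 13.5%.

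Of the genes of monocytes and activation 4 of 5 were below 0 and 0 passed. Ms4a6c, a tetraspanning protein gene of monocytes, ran from 14.0 through 16.3 to 21.0 CPM in the controls and from 13.5 through 15.3 to 15.8 CPM in the INK-ATTAC libraries. The INK-ATTAC values were tightly grouped at the lower end of the control range (log2 fold change -0.17, SE 0.09, edgeR adjusted p = 1.00). Of the 2050 exon bases of Ms4a6c, 1088 overlap the opposite-strand gene BE692007, and without strand the reads cannot be told apart. Ccr2, the receptor that brings monocytes out of the bone marrow, ran from 4.17 through 6.58 to 9.48 CPM in the controls and from 3.98 through 6.89 to 12.02 CPM in the INK-ATTAC libraries, with 3 INK-ATTAC libraries over the highest control and 1 under the lowest (log2 fold change 0.26, SE 0.24). Ms4a7, a relative of Ms4a6c, gave -0.14, and the endotoxin co-receptor gene Cd14 and the T cell costimulator gene Cd86 gave -0.02 and -0.09. The oxidase subunit genes Cyba and Cybb gave -0.02 (SE 0.11) and -0.11 (SE 0.13).

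No correlation of Csf1r with another member passed the test. Of the other 33, 22 correlated positively with it, the r of all 33 ran from -0.42 for Tmem119 to 0.50 for Fcgr3, and 0 of 33 passed by either measure (lowest adjusted permutation p = 0.947 for r and 0.902 for rho). Lyve1 was nearest to F13a1 (r = 0.87), followed by Smtnl1, Dpt, Klhl41 and Smpx (0.87 to 0.86), of which Smtnl1, Klhl41 and Smpx are muscle genes. Cd163 was nearest to Fam196b (0.85) and had Folr2 among its 5 nearest genes (0.72). Mrc1 was nearest to Gap43 (0.84) and Clec4a3 (0.84), and Spp1 to Pigk (0.89) and Sat1 (0.88).

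The libraries fell into a class with high Y-linked transcripts (controls 1 to 3 and INK-ATTAC 1 to 4) and one with low (controls 4 to 7 and INK-ATTAC 5 to 8), so the group effect was compared between them, a test added after the data were seen. For 4 of the 34 genes the effects differed at an unadjusted p under 0.05 in edgeR, where 4.77% of all genes did, and 0 of 34 had an adjusted p under it. Ccr2 averaged 5.20 CPM in the controls and 10.1 CPM in the INK-ATTAC libraries of the high class (log2 fold change 0.95), and 7.29 and 5.25 CPM in the low class (-0.48). The difference of the effects was 1.43 (SE 0.33, edgeR adjusted p = 0.585).

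P2ry12 had the same signs, with log2 fold changes of 0.40 in the high class and -0.81 in the low class (difference 1.20, SE 0.39, edgeR adjusted p = 0.876). Trem2 and Lyz2 had the opposite signs. Trem2 gave -0.26 in the high class and 0.15 in the low class (difference -0.42, SE 0.15, edgeR adjusted p = 0.876), and Lyz2 gave -0.37 and 0.03 (difference -0.41, SE 0.17, edgeR adjusted p = 0.876). The 4 genes were chosen by this difference, so the opposite signs of their class values are not a separate result. The low-class value of Lyz2 had an unadjusted edgeR p of 0.827. After adjustment 0 of the class values passed.

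**Figure D5:**
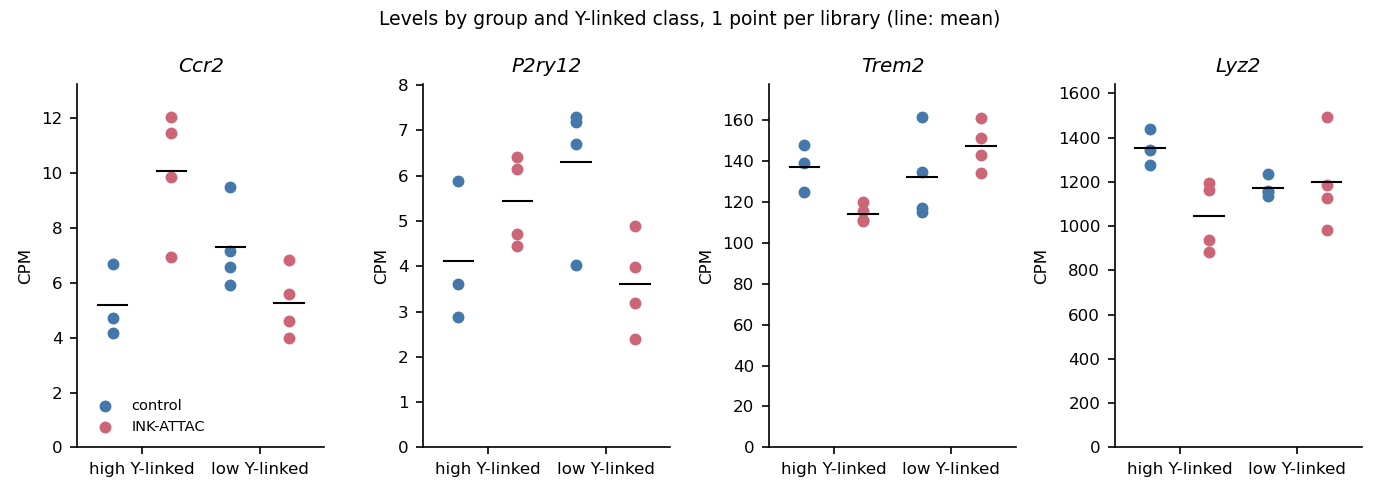
CPM of Ccr2, P2ry12, Trem2 and Lyz2 by group within libraries of high Y-linked level (3 control, 4 INK-ATTAC) and of low level (4 control, 4 INK-ATTAC), 1 point per library and a line at the mean. For Ccr2 the means are 5.20 and 10.1 CPM in the high class and 7.29 and 5.25 CPM in the low class.

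Other genes of the same cells were taken from further lists, and none of them was called over all genes. Of 20 further pan-macrophage genes 7 were above 0 and 13 below, and 1 had an unadjusted p under 0.05, the pore-forming protein gene Mpeg1 (log2 fold change -0.30, SE 0.12). The complement genes C1qa, C1qb and C1qc, made by macrophages, gave -0.02, -0.03 and 0.01. Of 7 ligands and attractants, among them Csf1 (0.02) and Il34 (-0.18), 3 were above 0, 4 below and 0 under 0.05.

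Of 11 further resident genes tested, 7 were above 0 and 4 below, and 4 had an unadjusted p under 0.05. The lectin receptor genes Cd209f and Cd209g were above 0, at 1.16 (SE 0.40) and 1.29 (SE 0.47), while Ms4a4a and the lectin receptor gene Clec4n were below, at -0.46 (SE 0.13) and -0.39 (SE 0.13), each with an edgeR adjusted p of 1.00. Cd209f ran from 0.415 through 2.58 to 4.29 CPM in the controls and from 2.46 through 4.97 to 10.1 CPM in the INK-ATTAC libraries, and Ms4a4a from 9.71 through 12.3 to 15.2 and from 5.66 through 9.08 to 12.6 CPM. The groups overlapped for both genes.

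Of 9 further microglial genes 4 were above 0 and 5 below, and Fcrls was the 1 under an unadjusted p of 0.05 (-0.36, SE 0.13). Of 18 further genes of lipid-laden macrophages 5 were above 0 and 13 below, and 3 were under it, the lipoprotein lipase gene Lpl (0.32, SE 0.11), the cystatin gene Cst7 (-0.89, SE 0.34) and the sterol acyltransferase gene Soat1 (-0.13, SE 0.06). Of 11 monocyte and neutrophil genes 3 were above 0 and 8 below, and Cd300e was the 1 under it (-1.39, SE 0.30, edgeR adjusted p = 0.573).

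The authors' deposited table, whose values were made with their own processing, held all 34 genes. In the authors' deposited table the log2 fold change was negative for 25 genes and positive for 9, 0 passed after adjustment (lowest adjusted p = 0.694), and 29 had the same sign as in edgeR. Folr2 was the 1 gene with an unadjusted p under 0.05 in the authors' deposited table, at a log2 fold change of 1.04 (p = 0.0124). The shares of all deposited genes by direction and under that p were not computed, so these counts cannot be set against them. F13a1 was at 0.82 (p = 0.0512) in the authors' deposited table, and Lyve1 was at 0.49, opposite in sign to its edgeR value.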

How the data were processed

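RNA-seq libraries of the RPE/choroid complex were grouped from their labels (7 control, 8 INK-ATTAC). The authors deposited raw read counts per Ensembl gene. The authors' deposited comparison table holds log2 CPM and log2 fold changes, each with a p-value and adjusted p-value, per the file headers. bcl2fastq, DRAGEN, edgeR, limma and the build GRCm38 are named in the submitters' processing notes. Not given in the sources used here are their versions, the strand setting and the annotation release. Collapsing 276 identical repeats left 40481 genes.

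Counts were scaled with TMM and tested with edgeR 4.0.16 (R 4.3.3, quasi-likelihood F-test, two-sided, filterByExpr, Benjamini-Hochberg over 17991 genes, threshold 0.05), checked on simulated data. SE is the absolute log2 fold change over the square root of F, and mean CPM and SD use TMM library sizes. Correlations used log2 CPM and 100000 permutations (two-sided). CPM per kb used GENCODE exon lengths (GRCm38), and genes of like pattern were the 5 of highest Pearson's r among those of mean log2 CPM of at least 1. Alternatives were DESeq2 1.42.0, RLE scaling, other filters, limma 3.58.1 voom with and without quality weights, covariates (Y-linked, muscle, rod), a replicate block and each library left out, with the lens covariate and Y-linked classes added after seeing the data. No library repeated another of its group (lowest chi-square per gene 27.6). Amplified reads without molecular identifiers are not independent molecules.

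The members and lists were chosen with earlier results of these data known. Full values are given for the 8 genes the comparison of resident, microglial and lipid-laden genes names, Csf1r, Lyz2 and the 4 of lowest p.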

Additional observations from a re-analysis of the deposited data

Results flagged for a closer look

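In 3 of 68 groups of values (34 genes in each of 2 groups of libraries) 1 library stood apart from the rest of its group by Dixon's gap criterion, where chance gives about 1 in 20. Lgals3 was highest in INK-ATTAC 8, at 579 CPM against 468 CPM in the nearest INK-ATTAC library. Fcgr3 was highest in control 1, at 156 CPM against 126 CPM in the nearest control. Ms4a6c was lowest in INK-ATTAC 6, at 13.5 CPM against 15.1 CPM in the nearest INK-ATTAC library.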

How the results depend on the processing

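None of the 34 genes was called as reported or in any of 28 other settings, and 10 kept their direction in all of them (Adgre1, Cd53, Mrc1, Spp1, Fcer1g, Fcgr3, Fcgr2b, Ms4a7 and Ms4a6c lower, Cd163 higher). The other 24 turned at least once; the cause was not tested. The genes at an unadjusted p under 0.05 numbered 5 with high Y-linked level alone, 3 with low, 2 with muscle level, 1 with lens level, 1 with limma-voom, 1 with quality weights, and 0 to 3 without single libraries. The share of all genes under that p was not computed for these settings or the replicate block below, so these counts cannot be set against it. The numbers in the titles did not pair libraries (r of deviations -0.10 to 0.29, 1 of 7 best with its own number). A replicate block by them, which drops INK-ATTAC 8, gave 29 lower genes of the 34, against 50.3% of all genes. It gave 2 at an unadjusted p under 0.05 and 0 called, and turned Spi1 to -0.055.
Log2 fold changes that turned are given by setting. With muscle level these were Cd68 0.062, Cyba 0.086, Cybb 0.051, F13a1 -0.32, Folr2 -0.0073, Gpnmb 0.15, Laptm5 0.17, Stab1 0.22, Tmem119 0.070 and Trem2 0.0048, and 22 genes were lower (47.3% of all genes). With lens level they were Ccr2 -0.015, Cyba 0.023, F13a1 -0.020 and Fcgr1 0.0034. With high Y-linked level alone they were Cd86 0.061, Lgals3 -0.087, Lyve1 0.29, Msr1 0.17, P2ry12 0.40 and Spi1 -0.25, and with the Y-linked covariate Msr1 0.017. With low Y-linked level alone they were Ccr2 -0.48, Cd14 0.035, Cd68 0.15, Cyba 0.15, F13a1 -0.34, Fcgr1 0.093, Gpnmb 0.10, Laptm5 0.049, Lyz2 0.026, Stab1 0.029, Tmem119 0.039, Trem2 0.15 and Tyrobp 0.061, and 19 genes were lower (50.1% of all genes). limma-voom gave Cd68 0.0086, Lyve1 0.12 and Msr1 0.0033, and with quality weights Cd14 0.018, Lyve1 0.45, Msr1 0.014 and Spi1 -0.081.
Without single libraries the ranges that crossed 0 were Aif1 -0.11 to 0.010, Cd14 -0.079 to 0.039, Cd68 -0.083 to 0.066, Csf1r -0.072 to 0.020, Cyba -0.084 to 0.018, Fcgr1 -0.10 to 0.052, Ly86 -0.074 to 0.0082, Lyve1 -0.32 to 0.049, Msr1 -0.088 to 0.023, Spi1 -0.085 to 0.11, Stab1 -0.36 to 0.073, Tmem119 -0.15 to 0.023 and Trem2 -0.085 to 0.012.
The precision is set by the spread between libraries. For the 8 resident, microglial and lipid-laden genes the 95% interval was narrowest for Trem2 (-0.24 to 0.17) and widest for Lyve1 (-1.05 to 0.82) on the log2 scale.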
